A study of Mus musculus with 4 samples.

Results

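The genes of the creatine futile cycle were followed in inguinal white adipose tissue (ingWAT), the subcutaneous fat of the groin, of cold-housed mice with and without the organic cation transporter Oct3 in adipocytes. The 7 genes, taken by their symbols, were Gatm, Gamt, Slc6a8, Ckb, Ckmt1, Ckmt2 and Alpl. All 7 are among the 19030 genes of the expression table, and 6 of them reached a mean expression of at least 1 FPKM and so stand among the 12658 genes that were compared between genotypes with limma, with Benjamini-Hochberg adjusted p-values over all of these genes. FPKM is a read number corrected for transcript length and library depth. Ctrl mice carried Oct3 (gene symbol Slc22a3) with loxP sites around the second exon. In cKO mice the same floxed gene was combined with an Adiponectin-Cre transgene, whose promoter is active in adipocytes, so that the other cells of the depot keep Oct3. All mice were C57BL/6, were 3 months old and were kept at 4°C, and there were 2 libraries of each genotype. How many mice a library holds is not given in the sources used here, so p-values measure the spread between libraries, and every mean below is given with the SD of n = 2.

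Both genotypes carried the adipocyte marker RNAs at high levels, with Fabp4 between 13456 and 16398 FPKM. Slc22a3 itself had an FPKM of 16.95 and 17.68 in Ctrl and of 9.07 and 9.50 in the cKO libraries (log2 fold change -0.83, adjusted p = 0.000439), so that it was lower in both libraries labelled cKO. That value takes in reads from outside the floxed exon as well. The estimated depth was 17400000 to 18150000 reads a library. A set of skeletal muscle genes stood apart. The summed FPKM of 15 muscle markers was 2543 and 1708 in the Ctrl libraries against 12.2 and 9.49 in the cKO libraries. All 12 that could be tested were called lower in cKO, against 13.8% of all genes tested. Most of the 12 reached the mean of 1 FPKM only through the Ctrl libraries, so their count adds little to the sums. In bulk tissue, fewer cells of a type and less RNA per cell cannot be told apart.

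In the creatine futile cycle, creatine is phosphorylated at the mitochondrion with ATP made there, phosphocreatine is hydrolysed again, and the ADP that is released keeps respiration going, so that energy leaves as heat without the uncoupling protein Ucp1. Gatm, which encodes the mitochondrial glycine amidinotransferase, and Gamt, which encodes guanidinoacetate methyltransferase, make creatine from arginine, glycine and a methyl group. Slc6a8 encodes the transporter that brings creatine into the cell. Ckb, Ckmt1 and Ckmt2 encode creatine kinases, and Alpl encodes tissue-nonspecific alkaline phosphatase, which in thermogenic fat cells has been described as the phosphocreatine phosphatase of the cycle.

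Across the members, expression moved in different directions. Both genes of creatine synthesis fell in cKO ingWAT, Gatm to 0.396 and Gamt to 0.517 of the Ctrl mean. Ckb was lower by a smaller margin, Ckmt2 was listed at 0 in both cKO libraries, Alpl was higher, and Slc6a8 did not pass the test. Of the 6 members tested, 1 was called higher and 4 lower at an adjusted p under 0.05. Of all genes tested, 25.8% were called, 12% higher and 13.8% lower. The median log2 fold change of the 6 members was -0.60, against -0.006 for all genes tested, but 1 of the 6, Ckmt2, passed the expression filter only through the Ctrl libraries. Over the other 5, 1 was called higher and 3 lower, and the median was -0.31. In the same libraries the thermogenic program was higher in cKO, with all 10 brown and beige adipocyte markers called higher and Ucp1 at 334.80 and 446.36 FPKM in Ctrl and at 1658 and 1420 in cKO.

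**Figure D1:**
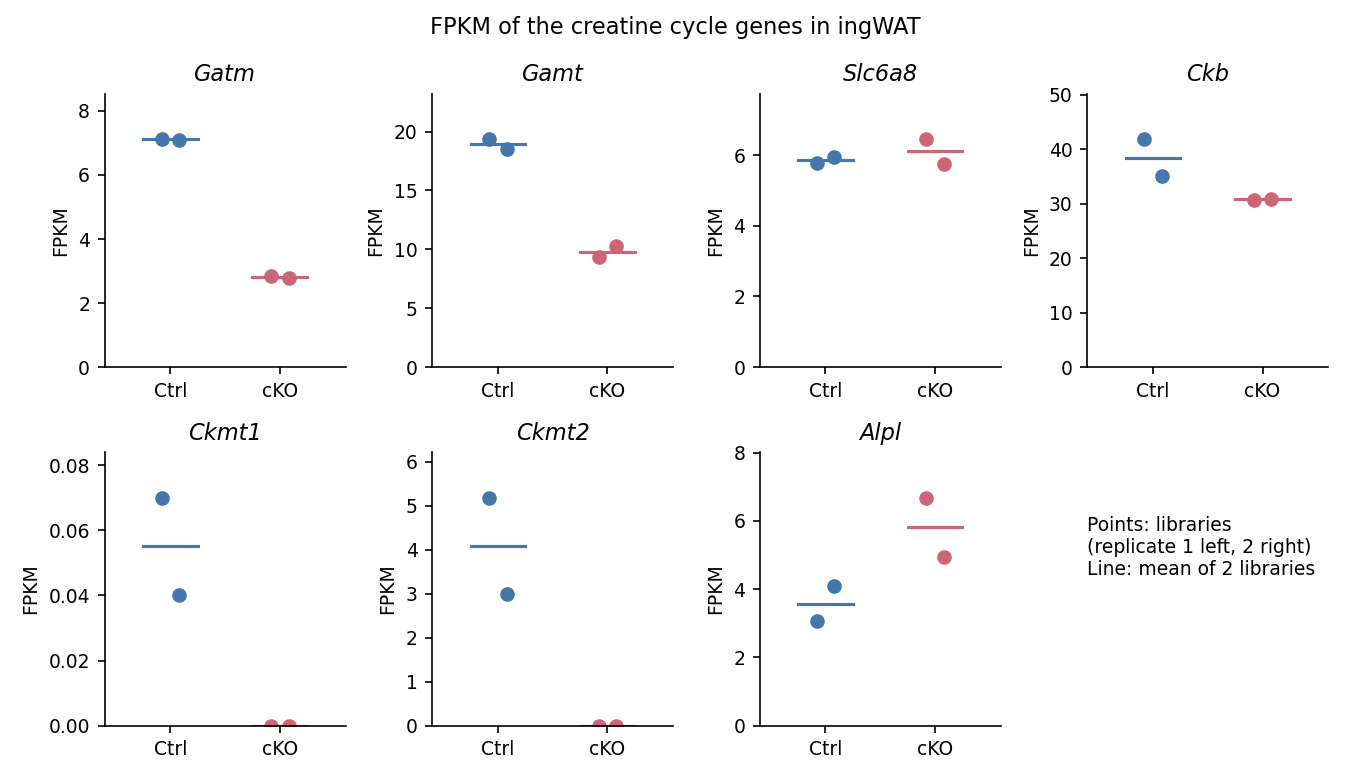
FPKM (y axis, separate scale for each gene, starting at 0) of the 7 creatine cycle genes in the 2 Ctrl and 2 cKO libraries, with points for libraries and lines for the mean of each genotype. Gatm and Gamt separate widely between genotypes, Slc6a8 overlaps, Ckb and Alpl separate by less than the libraries of their more variable genotype differ, and Ckmt1 and Ckmt2 are listed at 0 in both cKO libraries.

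The sequences upstream of the transcription starts are shown for the 4 members that were called and had expression in both genotypes, so that the starts of genes that fell can be set beside those of the gene that rose. Each run ends at the base before a start that the RefSeq promoter table lists and lies on the minus strand of GRCm38.p6. For Gamt the RefSeq gene reaches into the run, to position 80261025, and the run of Gatm, of 224 bases, stops before the first exon as another annotation, GENCODE M21, places it. Capitals mark matches, on either strand, to the motifs searched, which were the cAMP response element TGACGTCA, TGACG as its shorter core, the estrogen-related receptor element TCAAGGTCA, the shorter nuclear receptor site AGGTCA, the E-box CACGTG, the GC box GGGCGG, the CCAAT box (these letters themselves) and the TATA box, searched as TATAAA. The letters TGACG lie within TGACGTCA, and AGGTCA within TCAAGGTCA.
Gatm, chr2:122611304-122611527: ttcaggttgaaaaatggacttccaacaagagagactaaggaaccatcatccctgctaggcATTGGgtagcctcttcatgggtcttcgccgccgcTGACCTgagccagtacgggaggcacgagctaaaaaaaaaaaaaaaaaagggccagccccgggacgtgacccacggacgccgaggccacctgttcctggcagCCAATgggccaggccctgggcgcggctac
Gamt, chr10:80261013-80261262: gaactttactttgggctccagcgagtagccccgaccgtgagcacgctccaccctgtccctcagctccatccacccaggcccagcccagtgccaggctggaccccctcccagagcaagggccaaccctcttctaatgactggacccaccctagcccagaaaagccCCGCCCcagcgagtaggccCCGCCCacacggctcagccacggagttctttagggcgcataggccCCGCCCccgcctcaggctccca
Ckb, chr12:111672339-111672588: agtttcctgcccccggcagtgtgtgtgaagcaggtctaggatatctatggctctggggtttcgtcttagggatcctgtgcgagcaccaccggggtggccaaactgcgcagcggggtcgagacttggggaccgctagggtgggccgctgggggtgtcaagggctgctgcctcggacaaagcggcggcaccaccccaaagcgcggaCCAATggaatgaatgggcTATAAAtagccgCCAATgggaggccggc
Alpl, first start, chr4:137796385-137796634: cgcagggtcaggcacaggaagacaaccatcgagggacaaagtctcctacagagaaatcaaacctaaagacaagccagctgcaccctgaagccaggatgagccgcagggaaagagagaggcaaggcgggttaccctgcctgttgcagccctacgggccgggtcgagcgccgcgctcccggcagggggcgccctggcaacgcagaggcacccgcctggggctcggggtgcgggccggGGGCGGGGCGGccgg
Alpl, second start, chr4:137766476-137766725: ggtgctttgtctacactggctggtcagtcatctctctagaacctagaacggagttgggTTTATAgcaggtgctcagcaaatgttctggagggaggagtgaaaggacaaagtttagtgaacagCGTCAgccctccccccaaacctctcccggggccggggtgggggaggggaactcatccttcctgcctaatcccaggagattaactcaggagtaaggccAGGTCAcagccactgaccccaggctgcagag

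The starts did not share a motif across the set. Gatm and Ckb each held 2 CCAAT boxes, and 33.8% of all 32851 promoter windows of 250 bases in the same table held at least 1. Gamt held 3 GC boxes and the first start of Alpl 2 that overlap, and 32.7% of all windows held at least 1. Ckb also held a TATA box that begins 28 bases before the start, a motif found in 12.4% of all windows. The second start of Alpl held the shorter core TGACG, present in 17.8% of all windows, together with AGGTCA, present in 14.0%, and a TATA box on the opposite strand. Gatm held AGGTCA once. No member window held the full cAMP response element (1.55% of all windows), the estrogen-related receptor element (0.387%) or the E-box (6.02%). The windows of Gatm, Gamt, Ckb and the first start of Alpl were 59.2% to 68.4% GC, against a median of 52.4% over all windows. A match is a description of these letters only. The expression table gives 1 value for Alpl, so the 2 starts cannot be told apart in the libraries.

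Creatine synthesis showed the clearest difference. Gatm (Entrez gene 67092, chr2:122594473-122611277) had an FPKM of 7.12 and 7.10 in the Ctrl libraries and of 2.84 and 2.79 in the cKO libraries. The libraries of each genotype lay within a few hundredths of each other, and the genotypes did not overlap. The mean fell from 7.11 ± 0.0141 to 2.81 ± 0.0354 FPKM, a log2 fold change on the log2(FPKM + 1) scale of -1.09 (95% confidence interval -1.28 to -0.90, adjusted p = 0.000353). At the estimated depth these values stand for about 304 and 303 reads in Ctrl and 116 and 115 in cKO. Gatm was called under every alternative that could be run for it, with log2 fold changes from -1.31 to -1.04.

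Gamt (Entrez gene 14431, chr10:80258151-80261025), the second step of synthesis, had an FPKM of 19.36 and 18.51 in Ctrl and of 9.32 and 10.26 in cKO. Both cKO libraries lay far below both Ctrl libraries. The mean fell from 18.9 ± 0.601 to 9.79 ± 0.665 FPKM (log2 fold change -0.89, 95% confidence interval -1.06 to -0.72, adjusted p = 0.000475). Per transcript length, Gamt was the more abundant of the synthesis genes in every library. Its only lost call came with the added demand of an absolute log2 fold change of 1 or more.

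Some lists of other cell types moved in the same direction as the synthesis genes, and others went the other way. Higher calls covered 7 of 8 B and T cell markers and 5 of 6 tested neutrophil markers, against 12% of all genes tested. Of 7 fibroblast progenitor markers 5 were called lower, against 13.8% of all genes tested, whose median log2 fold change was -0.006. The 7 had a median of -0.63 on the log2 scale, and they summed to 1044 and 894 FPKM in Ctrl against 682 and 648 in cKO. Of 6 Schwann cell and nerve markers tested, 5 were called lower and 1, S100b, was called higher. This list summed to 166.5 and 153.0 FPKM in Ctrl against 74.2 and 79.1 in cKO. The part of these cell types in the fall of Gatm and Gamt was not tested. Among adipocyte markers 3 of 8 were lower, Adipoq, Lep and Retn, and the median of the list was -0.16. In the second Ctrl library the muscle markers summed to 67.2% of the first. The fibroblast progenitor markers summed to 85.7% and the Schwann cell and nerve markers to 91.9%. Gatm was at 99.7% and Gamt at 95.6%. Each is a single ratio with no error, and the part of muscle was not tested.

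Uptake of creatine did not pass the test. Slc6a8 (Entrez gene 102857, chrX:73673133-73682502), the creatine transporter, had an FPKM of 5.77 and 5.93 in Ctrl and of 6.45 and 5.75 in cKO. The lowest and the highest values were both from cKO libraries, so the genotypes overlapped. The log2 fold change was 0.05 with a 95% confidence interval of -0.15 to 0.25 (adjusted p = 0.700), and it was -0.02 without cKO replicate 1. A fall of the size seen for Gatm or Gamt lies outside this interval.

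**Figure D2:**
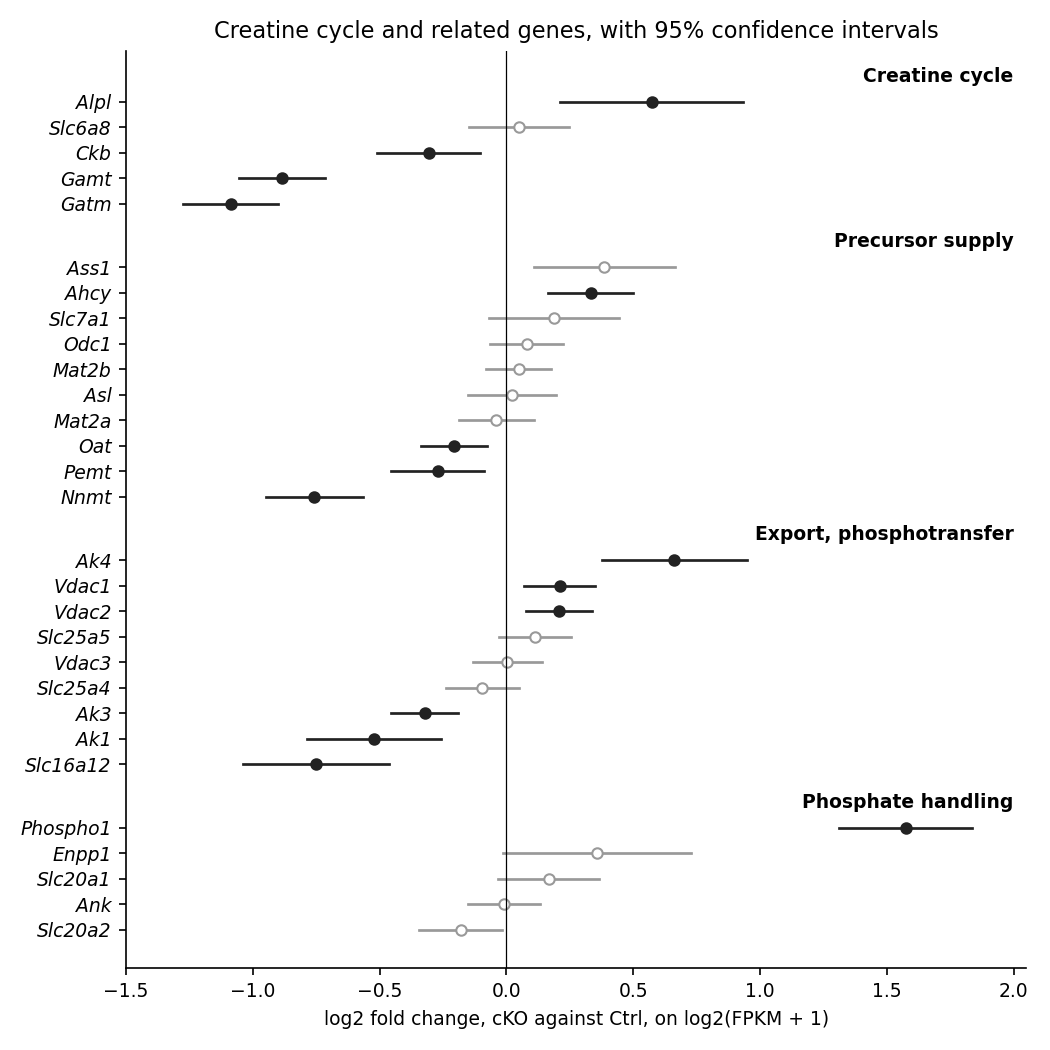
Log2 fold changes between cKO and Ctrl, computed from log2(FPKM + 1) (x axis), with 95% confidence intervals for 5 creatine cycle genes and for the tested genes of 3 related lists. Filled black points passed an adjusted p under 0.05 and open grey points did not, and Ckm, Ckmt2 and Arg1, each listed at or close to 0 in a genotype, and 1 gene not reported here are left out. Gatm and Gamt have the lowest values shown and Phospho1 the highest, at 1.58.

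Creatine kinases transfer phosphate between ATP and creatine. Ckb (Entrez gene 12709, chr12:111669355-111672338), the brain-type isoform, which is also the kinase of the cycle described in thermogenic adipocytes, had an FPKM of 41.82 and 35.04 in Ctrl and of 30.72 and 30.79 in cKO. Both cKO libraries were below both Ctrl libraries, but the second Ctrl library lay closer to the cKO libraries than to the first Ctrl library. The mean fell from 38.4 ± 4.79 to 30.8 ± 0.0495 FPKM (log2 fold change -0.31, 95% confidence interval -0.51 to -0.11, adjusted p = 0.0380). The call was lost in 7 of 12 alternatives, among them leaving out Ctrl replicate 1 (log2 fold change -0.18, adjusted p = 0.189), cKO replicate 1 (adjusted p = 0.138) or cKO replicate 2 (adjusted p = 0.130). Ckb was also lower in the Ctrl library with less muscle RNA, at 83.8% of the other, and the part of other cell types in its level was not tested.

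Of the mitochondrial kinases, Ckmt1 was at the limit of detection in both genotypes. Ckmt1 (Entrez gene 12716, chr2:121357773-121363737), the ubiquitous mitochondrial isoform, was listed at 0.07 and 0.04 FPKM in Ctrl, which is about 2 and 1 reads, and at 0 in both cKO libraries. It stayed below the filter and was not tested, and no difference was detectable at this depth, since 3 reads would be 0.109 and 0.108 FPKM in the cKO libraries. The annotated span of Ckmt1 shares 10 bases with that of Strc on the opposite strand.

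Ckmt2 (Entrez gene 76722, chr13:91853386-91876923), the sarcomeric mitochondrial isoform of heart and skeletal muscle, had an FPKM of 5.18 and 2.98 in Ctrl, about 136 and 78 reads. It was listed at 0 in both cKO libraries, where 3 reads would be 0.119 and 0.118 FPKM. Because of these zeros no fold is given (adjusted p = 0.000617, both cKO libraries lower). An antisense gene, 1700119I11Rik, overlaps 613 of its bases. The muscle genes were also lower in cKO, and between the Ctrl libraries the second held 57.5% of the Ckmt2, 63.1% of the Ckm and 67.2% of the summed muscle markers of the first. Ckm (Entrez gene 12715), the muscle cytosolic isoform and itself one of the 15 markers, had an FPKM of 332.74 and 210.07 in Ctrl and of 0.56 and 0.35 in cKO (adjusted p = 3.6e-06). Like Ckmt2, it passed the expression filter only through the Ctrl libraries. Ckm overlaps the antisense gene A930016O22Rik over 3952 bases. Ckmt2 stood at 1.56% and 1.42% of Ckm in the Ctrl libraries. The part of muscle in the Ckmt2 level was not tested.

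**Figure D3:**
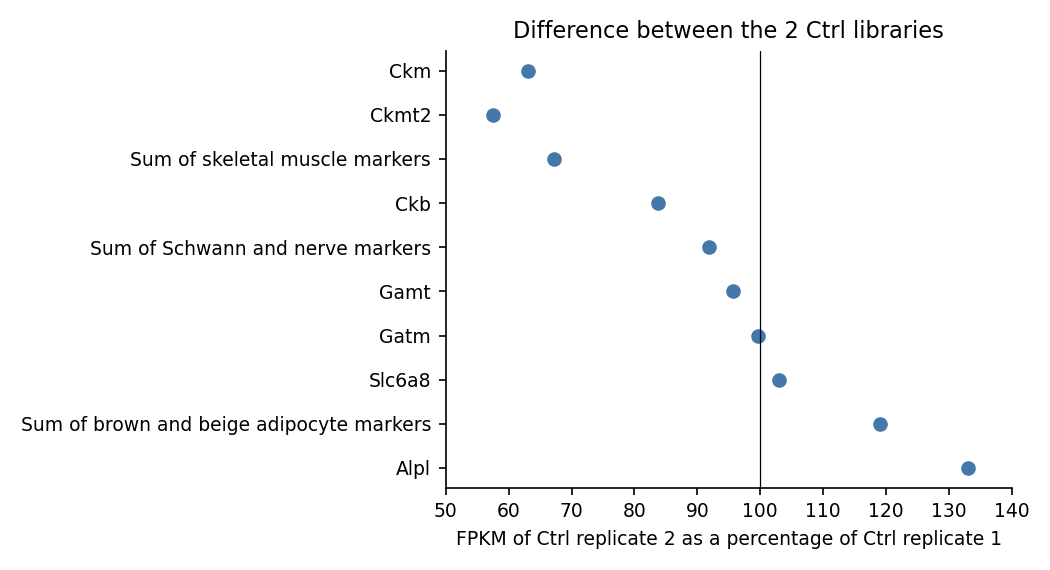
FPKM in Ctrl replicate 2 as a percentage of Ctrl replicate 1 (x axis, from 50% to 140%) for 6 creatine cycle genes, Ckm and the sums of 3 marker lists, each a single ratio with no error. Ckmt2 at 57.5% and Ckm at 63.1% lie beside the muscle markers at 67.2%, Ckb lies at 83.8%, Gatm at 99.7% and Alpl at 133%.

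The makeup of the creatine kinase RNA differed between the genotypes. The FPKM of the 4 isoforms summed to 379.81 and 248.13 in Ctrl and to 31.28 and 31.14 in cKO. Ckm made up 87.6% and 84.7% of the sum in Ctrl and 1.79% and 1.12% in cKO. Ckb made up 11.01% and 14.12% in Ctrl and 98.2% and 98.9% in cKO, although its own level was lower there. Without Ckm the sums were 47.07 and 38.06 FPKM in Ctrl and 30.72 and 30.79 in cKO. The mitochondrial isoforms made up 1.38% and 1.22% of the 4 isoforms in Ctrl and were listed at 0 in cKO (two-sided exact permutation test, p = 0.333, the smallest this design can give).

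**Figure D4:**
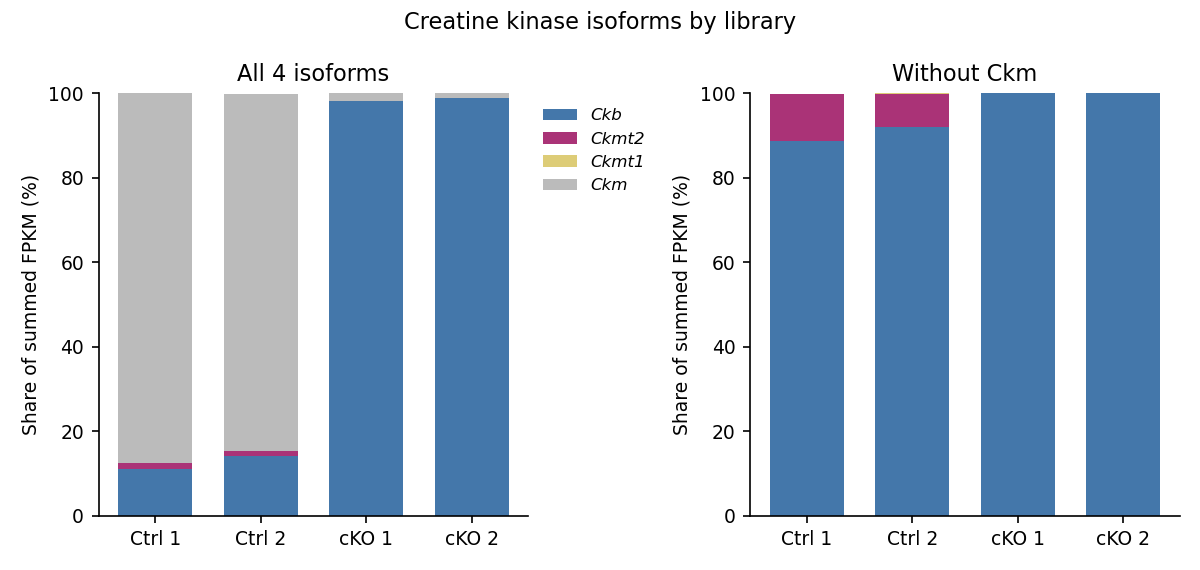
Share of the summed creatine kinase FPKM (y axis, %) from each isoform in each library, for the 4 isoforms on the left and without Ckm on the right. Ckm is the largest part of both Ctrl bars on the left, Ckb makes up over 98% of both cKO bars, and Ckmt2 is visible only in the Ctrl bars.

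The phosphatase of the cycle moved the other way. Alpl (Entrez gene 11647, chr4:137741731-137796384) had an FPKM of 3.06 and 4.08 in Ctrl and of 6.68 and 4.94 in cKO. Both cKO libraries were above both Ctrl libraries, with a gap between the genotypes smaller than the spread within either. The mean rose from 3.57 ± 0.721 to 5.81 ± 1.23 FPKM, 1.63 times the Ctrl mean (log2 fold change 0.57, 95% confidence interval 0.21 to 0.93, adjusted p = 0.0330). The call was lost in 6 of 11 alternatives, among them leaving out Ctrl replicate 1 (adjusted p = 0.244), Ctrl replicate 2 (0.0710) or cKO replicate 1 (0.157). Alpl is also known as an enzyme of neutrophils. Of 13 neutrophil markers, 5 of the 6 tested were called higher and 1 lower, and the other 7 were below the filter. Of all genes tested, 12% were called higher. Retnlg, among the markers called higher, passed the filter only through cKO, with a Ctrl mean of 0.9 FPKM. The list summed to 30.1 and 27.6 FPKM in Ctrl and 41.7 and 39.9 in cKO. S100a8, the marker with the largest rise, had 3.49 and 3.26 FPKM in Ctrl and 9.52 and 10.06 in cKO, and the lowest of the list, Ly6g and Mpo, were at or below 0.09 in every library. The part of neutrophils in the Alpl level was not tested.

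Among the other genes of alkaline phosphatases and phosphate handling, 1 of 5 tested was called higher and 0 lower. The shares over all genes tested were 12% and 13.8%. The 5 had a median of 0.17 on the log2 scale (Alppl2 was below the filter). The gene called higher was Phospho1 (Entrez gene 237928), which encodes a phosphatase of phosphocholine and phosphoethanolamine. Phospho1 had an FPKM of 93.85 and 115.04 in Ctrl and of 336.23 and 288.72 in cKO. The genotypes were far apart. The mean rose from 104 ± 15.0 to 312 ± 33.6 FPKM (log2 fold change 1.58, 95% confidence interval 1.31 to 1.84, adjusted p = 0.000321). Phospho1 overlaps Zfp652 on the same strand over 7642 bases, and Zfp652 had 4.33 and 4.88 FPKM in Ctrl and 4.18 and 3.8 in cKO. It also overlaps Abi3 on the opposite strand over 2067 bases, and Abi3 was itself higher in cKO, at 29.14 and 25.97 against 13.24 and 12.70 FPKM. Enpp1 and Ank, which supply extracellular pyrophosphate, and the phosphate importers Slc20a1 and Slc20a2 did not pass, with log2 fold changes from -0.18 to 0.36.

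The supply of arginine and methyl groups for creatine synthesis showed no common direction. Of 15 genes, 11 could be tested, and 2 were called higher and 3 lower, against 12% and 13.8% of all genes tested. The median log2 fold change of the 11 was 0.05, against -0.006 for all genes tested. Arg1, which encodes the arginase that splits arginine into urea and ornithine, was at 0.04 FPKM in each Ctrl library, while cKO libraries had 5.33 and 3.87 (adjusted p = 0.000196), and it passed the expression filter only through cKO. Ahcy, which encodes the hydrolase that clears S-adenosylhomocysteine, had 7.86 and 7.43 FPKM in Ctrl and 9.70 and 10.07 in cKO (log2 fold change 0.33, adjusted p = 0.0146). This call was lost with no filter (adjusted p = 0.0522) and in most fits with a library left out (log2 fold changes 0.30 to 0.37).

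The genes of the supply list that fell include users of the methyl donor other than Gamt. Nnmt, the nicotinamide N-methyltransferase and the most abundant gene of the list in Ctrl, fell from 95.75 and 91.61 FPKM to 50.84 and 59.43 (log2 fold change -0.76, adjusted p = 0.00117). Pemt, which methylates phosphatidylethanolamine, and Oat, the ornithine aminotransferase, were called lower with log2 fold changes of -0.27 and -0.21. Both calls were lost whichever library was left out (adjusted p = 0.0924 to 0.247 for Pemt and 0.0812 to 0.179 for Oat), which left Nnmt as the 1 gene of the list called lower in each of these 4 fits. The count called higher was then 1 to 3. The genes that make the methyl donor, Mat2a, the most abundant gene of the list in cKO at 73.10 and 73.79 FPKM, and Mat2b, did not pass, with log2 fold changes of -0.04 and 0.05. Neither did Ass1, Asl, Odc1 and Slc7a1, with log2 fold changes from 0.02 to 0.39. The cationic amino acid transporter Slc7a2 was below the filter, at 0.86 and 0.68 FPKM in Ctrl and 0.16 and 0.29 in cKO.

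Partners in export and phosphate transfer were also mixed. Of 12 genes, 11 could be tested, and 3 were called higher and 4 lower, against 12% and 13.8% of all genes tested. Slc16a12, a transporter through which creatine can leave cells, fell from 2.62 and 3.34 FPKM to 1.35 and 1.36 (log2 fold change -0.75, adjusted p = 0.00511). Of the adenylate kinases, which pass phosphate between adenine nucleotides, Ak1 fell from 20.90 and 16.17 to 12.38 and 12.62 FPKM and Ak3 by 0.32 on the log2 scale. Ak4, which passed the filter only through cKO, had 0.70 and 0.86 FPKM in Ctrl and 1.90 and 1.73 in cKO and was called higher. Ak1 lost its call with no filter (adjusted p = 0.0965), and both Ak1 and Ak3 lost theirs in some fits with a library left out. The outer membrane channels Vdac1 and Vdac2 were each called higher, by 0.21 on the log2 scale. These calls did not hold with the replicate block (adjusted p = 0.0612 and 0.0543), which left Ak4 as the 1 gene of the list called higher. They were also lost without Ctrl replicate 1 (log2 fold changes 0.21 and 0.19), as was that of Ak4 (0.60). Fewer genes of the list were then called in either direction. The ADP/ATP carriers Slc25a4 and Slc25a5, the latter the most abundant gene of the list at 366 to 402 FPKM, did not pass, and neither did Vdac3. The fourth gene called lower was Ckm, which passed the filter only through Ctrl.

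Regulators of thermogenic fat, a list of 8 genes of which 7 could be tested, held 4 called higher and 2 lower. The shares over all genes tested were 12% and 13.8%. Ppargc1a and Ppargc1b, coactivators of mitochondrial biogenesis, rose by 0.83 and 0.81 on the log2 scale, and their partners Esrra and Esrrg by 0.30 and 0.66. Esrrg passed the filter only through cKO. Without Ctrl replicate 1, 2 of these genes were called higher and 0 lower, and without cKO replicate 1, 2 were called higher and 2 lower. Adrb3, the beta3 adrenoceptor of adipocytes, fell from 166.45 and 151.12 FPKM to 113.26 and 122.23 (log2 fold change -0.43, adjusted p = 0.00568). Ebf2, a transcription factor of brown and beige precursors, fell by 0.42, and Prdm16 did not pass.

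The genes whose profiles over the 4 libraries were most like those of the members are given by the root mean square distance between centred log2(FPKM + 1) values. For Gatm they were Adamts5 (0.0258) and Drp2 (0.0396). For Gamt they were Paqr4 (0.0226) and Chrdl1 (0.0250). Slc6a8 was closest to 0610009O20Rik (0.00931) and Dip2a (0.00945), and Ckb to Prr5 (0.0134) and Vwa1 (0.0153). Ckmt2 was closest to Fitm1 (0.0702) and Tpm1 (0.0866). Alpl was closest to Retnlg (0.0409), one of the neutrophil markers, and to Hapln4 (0.0529). Drp2 and Fitm1 passed the expression filter only through Ctrl, and Retnlg and Hapln4 only through cKO. With 4 libraries such likeness is a description, and many genes share each pattern.

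Markers of the remaining cell types of the depot are described by their counts, beside 12% of all genes tested called higher and 13.8% lower. Among 8 B and T cell markers 7 were called higher and 0 lower, and the 8 had a median of 0.59 on the log2 scale. Among 8 macrophage markers 1 was higher and 4 were lower, among 7 endothelial markers 3 were lower, and among 6 smooth muscle markers 1 was higher and 1 lower. Slow and cardiac muscle genes summed to 3.38 to 4.59 FPKM over the libraries, with 1 of 2 tested called higher. Epithelial markers summed to at most 2.09 FPKM and none could be tested.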

How the data were processed

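Poly-A RNA of 4 ingWAT libraries was read by the authors as single-end sequences of 50 bases on a BGISEQ-500. The deposited FPKM values per Entrez gene come, per the submitters' processing notes, from HISAT2 2.0.4, RSEM 1.2.12 and mm10. No step that marks strand is described, and no scaling between libraries is stated. Low FPKM values of 299 genes for RNAs no longer than 400 bases move in steps of whole reads. These steps gave an estimate of depth, with 83.2% to 87.3% of values whole within 0.1 reads. Over 4 libraries simulated from whole reads only, the largest error was 0.14%. The error in the real libraries is not known. For most genes no whole reads could be recovered, and no count test was run.

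Genes that averaged 1 FPKM or more were compared on log2(FPKM + 1), which understates the change of low genes, with limma 3.58.1 in R 4.3.3 (eBayes with a trend, Benjamini-Hochberg adjustment over 12658 genes, called at an adjusted p under 0.05). In simulated data for this comparison of 12658 genes, 155 of 200 changed genes and 8 unchanged genes were called. Genes named are all members, Ckm, Slc22a3, from each list the most abundant gene and called genes, and the 2 most alike profiles per member. The other genes of these lists, Ucp1, Abi3, Zfp652, Ly6g and Mpo are named beside results and were chosen after their values were seen. Members and lists were chosen with earlier results of these data known. Gene positions and promoters are from RefSeq on GRCm38.p6, the build of mm10, and 6 of the 7 members matched a promoter entry. Slc6a8 is named only. Alpi, Akp3, Krt14, Th and Dbh were not analysed here. The values of 1 listed gene are not reported here. Alternatives were each library left out, a replicate block, quantile normalization, median-of-ratios scaling, no filter or one at a mean FPKM of 5, a pseudocount of 0.1, no trend in eBayes, a minimum absolute log2 fold change of 1, and the kinase share without Ckm.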

Additional observations from a re-analysis of the deposited data

How the results depend on the processing

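The count of all genes called was 3269, against 1762 with no filter, 233 with an absolute log2 fold change of at least 1, and 787 to 2340 with a library left out, where the lone sample of a genotype is assumed to vary like the others. The share of higher genes among all calls was 46.5%, and 34.8% to 50.8% under the alternatives. The count of members called higher, 1, became 0 with no filter, with a mean FPKM of at least 5 (Gatm, Ckmt2 and Alpl could then not be tested), in eBayes without a trend and with a log2 fold change of at least 1, and was 0 to 1 with a library left out. The count of members called lower, 4, became 2 with a mean FPKM of at least 5 and 2 with a log2 fold change of at least 1. It was 3 with no filter, with median-of-ratios scaling and in eBayes without a trend. The call of Ckb was also lost with some libraries left out, as given above. The difference in the mitochondrial share of creatine kinase FPKM, -1.30 percentage points, was -9.54 without Ckm and -1.38 to -1.22 with a Ctrl library left out. Log2 fold changes of genes that did not pass changed sign. With a library left out, those of Slc6a8 ran from -0.0211 (without cKO replicate 1) to 0.121, of Asl from -0.0552 (without cKO replicate 1) to 0.0988, of Mat2a from -0.104 to 0.0247 (without Ctrl replicate 2), of Vdac3 from -0.0412 (without Ctrl replicate 1, and -0.0049 without cKO replicate 2) to 0.0465, and of Ank from -0.0572 to 0.0375 (without cKO replicate 2, and 0.0060 without Ctrl replicate 2). With quantile normalization Slc25a5 was at -0.0411 and Ank at 0.0055. With the replicate block, 3383 genes were called, and no member changed its call (Ckb adjusted p = 0.0223, Alpl adjusted p = 0.0300). Same-numbered libraries did not deviate together (r = 0.0148 across 12658 genes), so the numbers were not read as pairs. The cause of these changes was not tested. With 2 libraries of each genotype, small differences such as those of Ckb and Alpl are at the limit of what the comparison resolves.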
